A study of Mus musculus with 15 samples.

Results

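Transcripts of lymphocytes, dendritic cells and red cell precursors were followed through sorted tissue macrophages, as 31 listed genes read by symbol from the table of corrected counts. They comprised 9 T cell, 5 B cell, 5 natural killer or cytotoxic, 6 dendritic and 6 erythroid genes. Of the 31 genes, 29 had a row among the 24084 genes of the table, and Trbc1 and Trbc2 were not analysed here. The rows of Hba-a1 and Hba-a2, the alpha globins, held the same reads, since their raw counts were equal in 15 of 15 libraries, and they are given as 1 locus under Hba-a1. This left 28 loci, of which 23 passed the filter on low counts and were tested. The 5 below it were Cd3g, Pax5, Klrb1c, Nkg7 and Gzmb.

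The cells were F4/80+CD45+ cells, a surface phenotype of tissue macrophages, sorted ex vivo from C57BL/6J mice, and their total RNA was sequenced from low input. All groups shared strain and sort, and no mutation is named. Every sample title carries the letters ND, which are not interpreted here, and no other treatment label is given. The groups were spleen macrophages (SpM, n = 3), brain macrophages (Microglia, n = 3), macrophages of sympathetic ganglia (SAM ganglia, n = 3), macrophages of sympathetic nerve fibers dissected from subcutaneous fat (SAM fibers, n = 2), visceral fat macrophages (vATM, n = 2) and subcutaneous fat macrophages (sATM, n = 2). SAM stands for sympathetic neuron-associated macrophage. Spleen, brain and both fats were digested with collagenase for 30 minutes, ganglia with collagenase for 10 minutes and trypsin for 30 minutes, and fibers with hyaluronidase for 30 minutes and collagenase for 15 minutes, all at 37 °C. Digestion therefore cannot be told apart from tissue for the ganglia and fibers. Tissues came from 10 mice, and no label ties a library to its own animal, so p-values reflect library-to-library spread that may be technical. Whether animals were perfused or red cells lysed is not stated in the sources used.

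The 15 libraries held 2.546 to 12.52 M corrected counts, and 3 counts in a library corresponded to 0.249 to 0.895 CPM (counts per M of corrected counts, after scaling). Sort markers were present in every library, with Adgre1 (F4/80) at 128 to 608 CPM, Ptprc (CD45) at 134 to 949.6 CPM and Csf1r, the macrophage growth factor receptor, at 756 to 4963 CPM. Zeros among the corrected counts may be failed estimates. Of the genes with at least 100 raw gene-body counts, 39.96% were listed at 0 in SAM fibers 1, and 3.99% to 24.7% in the other libraries. SAM fibers 1 had 12 of the 28 loci at 0, and 10 of these had at least 100 raw counts. Its background DNA, measured as raw counts of olfactory receptor genes, was also the highest at 1233 per M raw counts, against 32.9 to 1085 in the other libraries. The SAM fibers libraries correlated at 0.605 with each other (Pearson, log2 CPM, across genes), against 0.781 to 0.959 for other pairs within a group.

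Macrophages clear aged red cells and dying leukocytes, above all in the spleen, and share some surface genes with lymphocytes and dendritic cells. Each blood lineage has genes that few other cells use, such as the CD3 chains of the T cell receptor, the Cd79a signalling chain of the B cell receptor, and the globins with the heme enzyme Alas2 in erythroid cells. Others of the listed genes are less restricted. Cd4 is carried by helper T cells and also by some mouse dendritic cells and macrophages, Bst2 is induced by interferon in many cells, and Ebf1, a B cell transcription factor, is also active in stromal cells of fat.

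**Figure D1:**
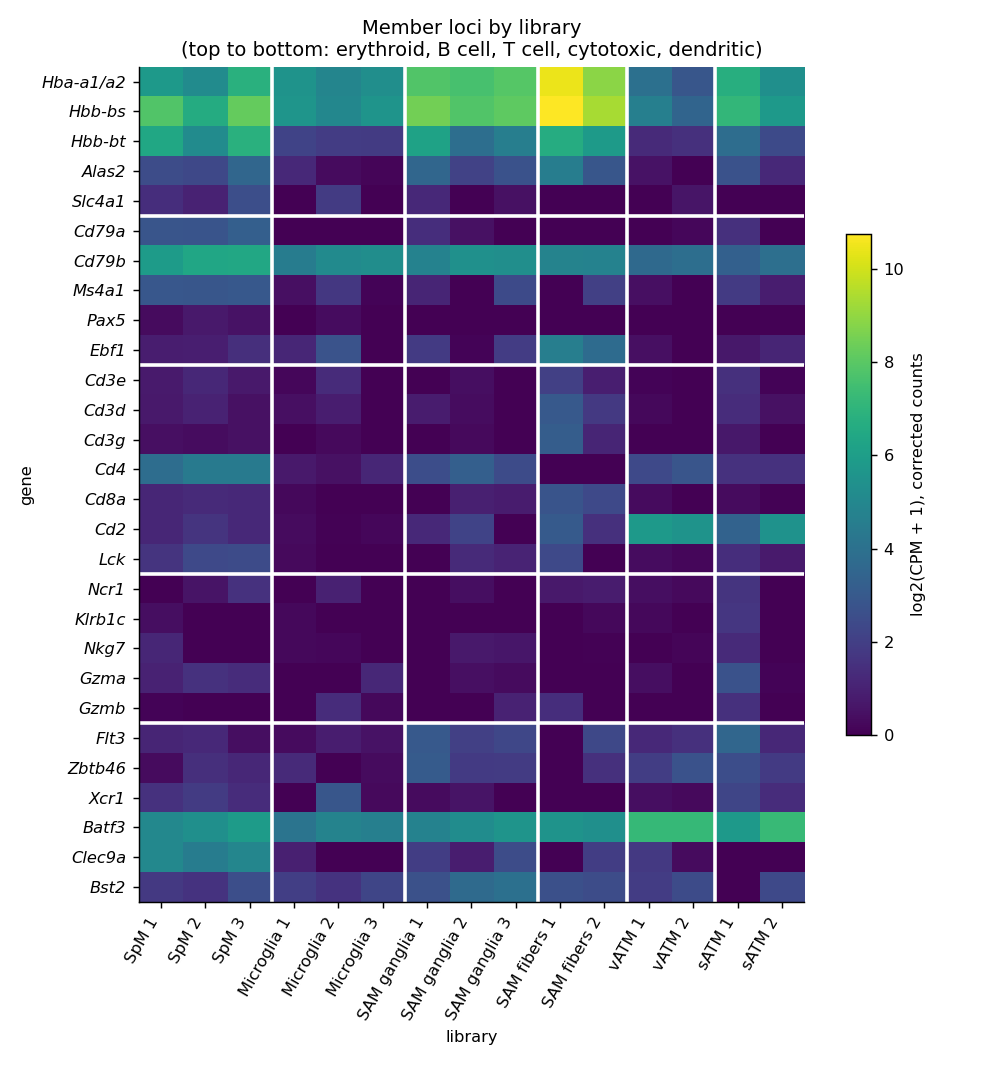
Levels of the 28 loci in the 15 libraries, as log2(CPM + 1) of corrected counts (color), with libraries grouped from left to right and white lines between groups and gene classes. Hba-a1 and Hbb-bs are highest in SAM fibers 1, at 1390.0 CPM of Hba-a1, and Hbb-bt is highest in SpM 3 at 112 CPM. Cd79a, Cd4 and Clec9a are highest in the SpM libraries, Cd2 in the 4 fat libraries, and Batf3 in fat, except in sATM 1.

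The 5 erythroid loci summed to 18.8 (vATM 2) to 3245 (SAM fibers 1) CPM. Per length, their summed RPKM was the highest of the 5 classes in all libraries except vATM 1, vATM 2 and sATM 2, where the dendritic genes led with 142, 195 and 228 RPKM against 44.0, 27.3 and 171 RPKM of erythroid genes. Their start regions are shown because Hba-a1, Hbb-bs and Hbb-bt were called together in 4 of the 6 comparisons while Hbb-bt alone was called in spleen. Capitals mark CACCC, the box bound by Klf1-type factors, CCAAT, the box bound by NF-Y, and a GATA motif, searched as AGATAA, in the form AGATAG, in the form TGATAA and in the form TGATAG, each on either strand. The 120 bases before the RefSeq start are given 5′ to 3′ in the gene's direction (GRCm38.p6) for Hba-a1 (chr11:32283552-32283671, plus strand), Hbb-bs (chr7:103827929-103828048, minus strand), Hbb-bt (chr7:103813924-103814043, minus strand) and Alas2 (chrX:150547297-150547416, plus strand).
Hba-a1: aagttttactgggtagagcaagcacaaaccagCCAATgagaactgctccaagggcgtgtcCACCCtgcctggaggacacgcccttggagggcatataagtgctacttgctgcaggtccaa
Hbb-bs: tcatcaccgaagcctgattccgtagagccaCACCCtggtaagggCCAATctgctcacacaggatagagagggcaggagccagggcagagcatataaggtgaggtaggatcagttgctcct
Hbb-bt: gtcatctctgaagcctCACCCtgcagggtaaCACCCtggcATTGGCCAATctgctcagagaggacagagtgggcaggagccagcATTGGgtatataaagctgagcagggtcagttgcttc
Alas2: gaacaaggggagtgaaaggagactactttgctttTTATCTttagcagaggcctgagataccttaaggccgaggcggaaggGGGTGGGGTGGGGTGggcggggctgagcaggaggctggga
Within 250 bases of the start, 51.3% of 27025 mouse promoters held CACCC, 34.5% held CCAAT and 27.1% held a GATA motif. Hbb-bt had 3 CACCC and 3 CCAAT matches and no GATA match in that window, whereas Hbb-bs had 1 of each, its GATA match lying outside the bases shown. In Hbb-bt a pair of CCAAT matches lay back to back on opposite strands, 80 to 71 bases before the start, without overlap. The shown bases of Hbb-bs and Hbb-bt were 72.7% identical, and their transcripts were 93.0% identical over their best local alignment, so reads could be told apart at 41 mismatched bases. The counting of reads that match both genes is not stated in the sources used. These matches are a description of letters in the windows.

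Hbb-bs, an adult beta globin of the haplotype that C57BL/6J mice carry, had 227, 95.9 and 299.8 CPM in SpM, 47.7, 30.6 and 46.4 CPM in Microglia, 353, 226 and 271 CPM in SAM ganglia, 1731 and 649 CPM in SAM fibers, 23.7 and 10.1 CPM in vATM, and 139.7 and 55.0 CPM in sATM. By group mean the order was SAM fibers, SAM ganglia, SpM, sATM, Microglia, vATM. Libraries overlapped between SAM ganglia and SpM and between SpM and sATM, and not between the other neighbours in that order. Against sATM the gene rose in SAM fibers by 3.61 ± 0.63 (log2 fold change ± SE, adjusted p = 0.00476, edgeR's quasi-likelihood test with Benjamini-Hochberg adjustment, as for every adjusted p here). In fat the gene fell by 2.52 ± 0.39 (adjusted p = 0.000433), and in Microglia it fell by 1.97 ± 0.43 (adjusted p = 0.00399). In these bulk samples, fewer cells of a type and less RNA per cell cannot be told apart.

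Hba-a1, the alpha globin locus, had a similar order of group means, with sATM above SpM. It had 54.1, 35.1 and 111 CPM in SpM, 44.7, 29.1 and 38.7 CPM in Microglia, 229, 198 and 239 CPM in SAM ganglia, 1390.0 and 473 CPM in SAM fibers, 14.6 and 6.36 CPM in vATM, and 106 and 39.6 CPM in sATM. The 3 SAM ganglia libraries lay below both SAM fibers libraries and above the other 10 libraries. The locus was higher in SAM fibers than in sATM (3.68 ± 0.65, adjusted p = 0.00476). On the log scale it was higher in SAM ganglia than the mean of the other groups (1.65 ± 0.34, adjusted p = 0.0111), though below SAM fibers. In fat the alpha globin locus fell by 2.45 ± 0.40 (adjusted p = 0.000615). In Microglia it fell by 1.42 ± 0.42 (adjusted p = 0.0287), a call lost without any 1 of the 3 Microglia libraries (adjusted p up to 0.138) and without the SAM fibers libraries (0.62 lower, adjusted p = 0.270).

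Hbb-bt, the other adult beta globin of that haplotype, had 85.2, 35.7 and 112 CPM in SpM, 3.45, 2.80 and 2.61 CPM in Microglia, 73.1, 13.7 and 23.6 CPM in SAM ganglia, 101 and 56.7 CPM in SAM fibers, 1.43 and 1.84 CPM in vATM, and 13.2 and 4.36 CPM in sATM. SpM overlapped with the SAM libraries and lay above all Microglia and fat libraries. The gene rose in SpM (2.89 ± 0.39, adjusted p = 6.52e-05), in SAM ganglia (1.60 ± 0.42, adjusted p = 0.0457) and in SAM fibers against sATM (3.21 ± 0.75, adjusted p = 0.0246). The SAM ganglia call was lost in 14 of 24 alternatives, 10 of them with a single library left out (adjusted p up to 0.707), and the SAM fibers call without SAM fibers 1 or sATM 2 (adjusted p up to 0.178). In fat it fell by 2.93 ± 0.50 (adjusted p = 0.000920) and in Microglia by 2.74 ± 0.57 (adjusted p = 0.00278).

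Among the reads of both beta globins, the share of Hbb-bt was 27.3% (95% Wilson interval 25.9% to 28.7%), 27.1% (24.7% to 29.7%) and 27.1% (25.5% to 28.8%) in the SpM libraries. It was 17.1% (15.5% to 18.9%) in SAM ganglia 1 and 15.3% (9.50% to 23.7%) in vATM 2, and between 5.26% and 8.64% in the other 10 libraries. The 3 spleen intervals overlapped none of the other 12. The intervals cover counting error only, and the difference in share was described after its values were seen and was not tested. Per length, alpha to beta globin ratios (RPKM) were 0.198, 0.304 and 0.309 in SpM, against 0.607 to 1.0 in the other libraries. The corrected Hba-a1 count was 56.6% to 61.1% of the raw gene-body count in SpM, against 73.0% to 98.9% elsewhere, while for Hbb-bs this figure was 94.8% to 103% in all libraries. The part of the authors' correction in the low spleen ratio was not tested.

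**Figure D2:**
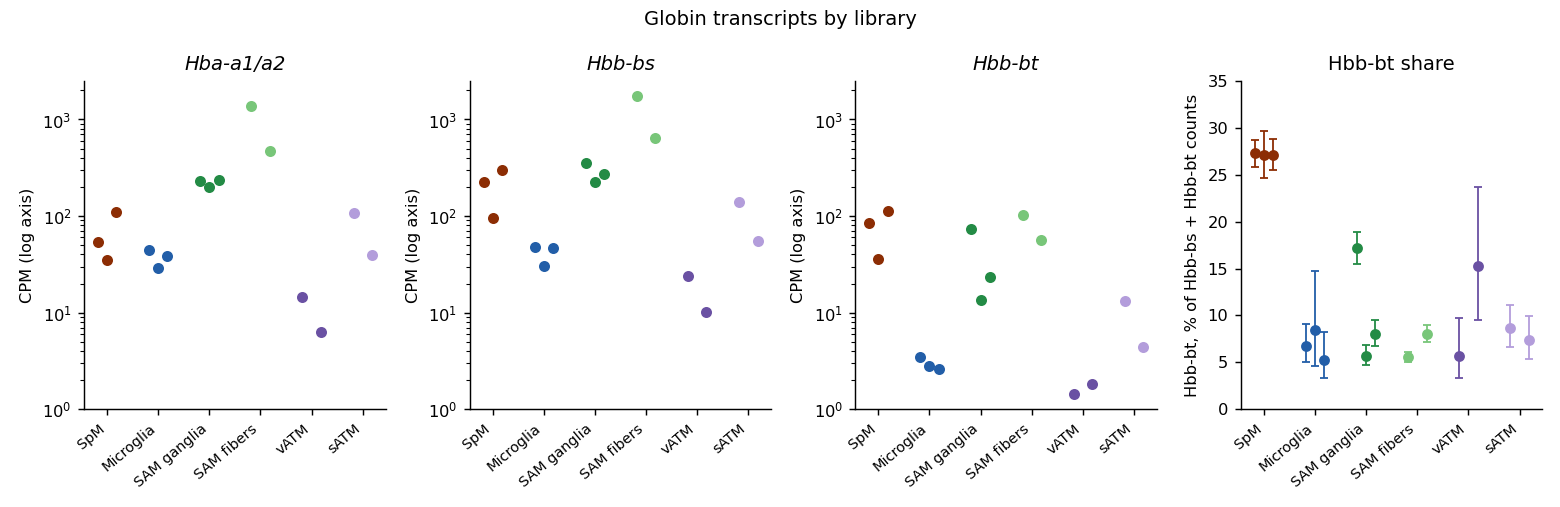
The first 3 panels show CPM of the globin loci on a log axis for each library (points) by group, and the last shows the percent of beta globin counts that came from Hbb-bt with 95% Wilson intervals. SpM libraries lie at 27.1% to 27.3% and all others at or below 17.1%, while Hbb-bs itself is highest in SAM fibers at 649 and 1731 CPM.

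Alas2, the first enzyme of heme synthesis in erythroid cells, had 4.61, 4.05 and 10.7 CPM in SpM, 1.33, 0.237 and 0.109 CPM in Microglia, 10.6, 3.37 and 5.56 CPM in SAM ganglia, 22.7 and 6.33 CPM in SAM fibers, 0.440 and 0 CPM in vATM, and 5.56 and 1.34 CPM in sATM. Its group means had the same order as those of Hbb-bs, and its differences passed the test in no comparison (smallest adjusted p = 0.0891, fat). Slc4a1, the red cell anion exchanger, had at most 4.99 CPM (SpM 3) and was at 0 in 8 libraries. Together the globins were 0.00165% (vATM 2) to 0.266% (SAM fibers 1) of all corrected counts.

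In the B cell class, spleen stood apart. Cd79a, a signalling chain of the B cell receptor, had 6.09, 6.01 and 8.57 CPM in SpM, 1.67, 0.378 and 0 CPM in SAM ganglia, 0.0255 and 0.131 CPM in vATM, 1.80 and 0 CPM in sATM, and was listed at 0 in all 3 Microglia and both SAM fibers libraries. The lowest SpM library was above the highest of all others, and the mean over SpM was 20.8 times the mean of the other 5 group means. The gene rose in SpM (adjusted p = 0.00374). Its fitted log2 fold change of 5.99 ± 1.20 depends on the prior count, since 2 of the 5 groups it is set against were at 0. Ms4a1, the B cell surface protein CD20, had 6.59, 6.36 and 6.84 CPM in SpM, 0.345, 2.33 and 0.0849 CPM in Microglia, 1.15, 0 and 4.34 CPM in SAM ganglia, 0 and 3.08 CPM in SAM fibers, 0.359 and 0 CPM in vATM, and 2.54 and 0.823 CPM in sATM. The SpM libraries lay above all others for it too, with 2.77 ± 1.04 that did not pass the test (adjusted p = 0.102).

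Cd79b, the partner chain of Cd79a, was found in every library. It had 59.1, 80.5 and 87.6 CPM in SpM, 22.1, 34.9 and 37.8 CPM in Microglia, 26.2, 41.0 and 38.5 CPM in SAM ganglia, 26.9 and 26.3 CPM in SAM fibers, 11.9 and 13.8 CPM in vATM, and 8.92 and 14.3 CPM in sATM. SpM lay above all other libraries and fat below all others. The gene rose in SpM (1.82 ± 0.22, adjusted p = 1.69e-05) and in fat it fell by 1.65 ± 0.24 (adjusted p = 0.000248). Per length, Cd79b exceeded Cd79a even in SpM, at 50.7, 75.3 and 78.9 RPKM against 4.84, 5.21 and 7.15 RPKM, and Microglia had 17.96 to 39.7 RPKM of Cd79b with Cd79a at 0.

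Ebf1 followed neither gene. It had 0.817, 0.888 and 1.73 CPM in SpM, 1.20, 5.75 and 0 CPM in Microglia, 2.54, 0.0736 and 2.71 CPM in SAM ganglia, 23.4 and 12.4 CPM in SAM fibers, 0.354 and 0.0124 CPM in vATM, and 0.599 and 1.15 CPM in sATM. SAM fibers were above all other libraries, and the difference from sATM did not pass the test (4.35 ± 1.73, adjusted p = 0.167). The SAM fibers values rested on 78.4 and 59.8 corrected counts, where the raw gene-body counts were 8320 and 2478. Pax5, the factor that fixes B cell identity, had at least 3 counts in 2 libraries, both SpM, with at most 0.668 CPM.

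Within the T cell class, Cd2 was highest in fat, Cd4 in spleen and the CD3 chains in SAM fibers. Cd2, an adhesion receptor of T and natural killer cells, had 54.7 and 44.6 CPM in vATM, 9.29 and 43.2 CPM in sATM, 1.23, 2.07 and 1.38 CPM in SpM, 0.250, 0.0465 and 0.134 CPM in Microglia, 1.38, 3.47 and 0 CPM in SAM ganglia, and 7.34 and 1.85 CPM in SAM fibers. All 4 fat libraries lay above all others, with sATM 1 close to SAM fibers 1. The gene rose in fat (4.87 ± 0.55, adjusted p = 2.01e-05), and in Microglia it fell by 5.17 ± 1.003 (adjusted p = 0.00159). Of the CD3 chains, Cd3e and Cd3d were tested and called in no comparison. Cd3e, Cd3d and Cd3g, which carry the signal of the T cell receptor, summed to 0.241 and 0 CPM in vATM and 4.01 and 0.458 CPM in sATM. In the other groups they summed to 1.75, 2.57 and 1.44 CPM in SpM, 0.478, 2.5 and 0 CPM in Microglia, 0.767, 0.810 and 0 CPM in SAM ganglia, and 18.2 and 4.51 CPM in SAM fibers. The SAM fibers sums rested on 61.0 and 21.7 corrected counts, where the raw gene-body counts were 681 and 245. SAM ganglia 3 and Microglia 3 had 229 and 159 raw counts of these chains and were listed at 0.

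Cd4 was highest in spleen, with 13.3, 20.3 and 20.3 CPM in SpM, 0.689, 0.397 and 1.23 CPM in Microglia, 4.89, 8.62 and 4.44 CPM in SAM ganglia, 4.12 and 6.13 CPM in vATM, and 1.89 and 1.90 CPM in sATM. SpM lay above all other libraries. Both SAM fibers libraries were listed at 0, although they held 488 and 172 raw gene-body counts, against 34 and 93 in sATM. The gene rose in SpM (adjusted p = 1.05e-05), at 6.52 times the mean of the other group means. With the SAM fibers libraries left out, an alternative added after seeing the data, its log2 fold change was 2.79, against 4.23 ± 0.46 with them. The fit also called Cd4 higher in SAM ganglia (adjusted p = 0.0179), but without the SAM fibers libraries the difference was 0.82 (adjusted p = 0.271). In SAM fibers against sATM it was called lower (adjusted p = 0.021), with no fold since 1 side was at 0, and the raw gene-body counts gave 0.30 in the opposite direction (adjusted p = 0.796). That call was also lost without SAM fibers 1, sATM 1 or sATM 2 (adjusted p up to 0.0888). Cd8a, the co-receptor of killer T cells, reached 5.84 CPM in SAM fibers 1, and Lck, the kinase that CD4 and CD8 bind, reached 4.53 CPM in SpM 3. Neither was called in any comparison.

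The cytotoxic class was low throughout. Ncr1 and Klrb1c, natural killer receptors, the granule protein Nkg7 and the granzymes Gzma and Gzmb summed to 2.65, 2.41 and 3.53 CPM in SpM, 0.345, 2.68 and 1.495 CPM in Microglia, 0, 1.34 and 1.85 CPM in SAM ganglia, 2.35 and 0.974 CPM in SAM fibers, 0.841 and 0.318 CPM in vATM, and 13.0 and 0.0894 CPM in sATM. The highest sum, that of sATM 1, rested on 51.02 counts, and by CPM all 5 genes were at their maximum there, Gzma highest at 5.46 CPM. By RPKM only Klrb1c and Gzma were highest in sATM 1. Ncr1 was then higher in SpM 3 (1.45 against 1.28), Nkg7 in SpM 1 (1.59 against 1.53) and Gzmb in Microglia 2 (1.55 against 1.12). Only Ncr1 and Gzma passed the filter, and neither was called in any comparison. The same sATM library was the lower of its pair for Cd2 and Batf3 and had the most Flt3 of all libraries.

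**Figure D3:**
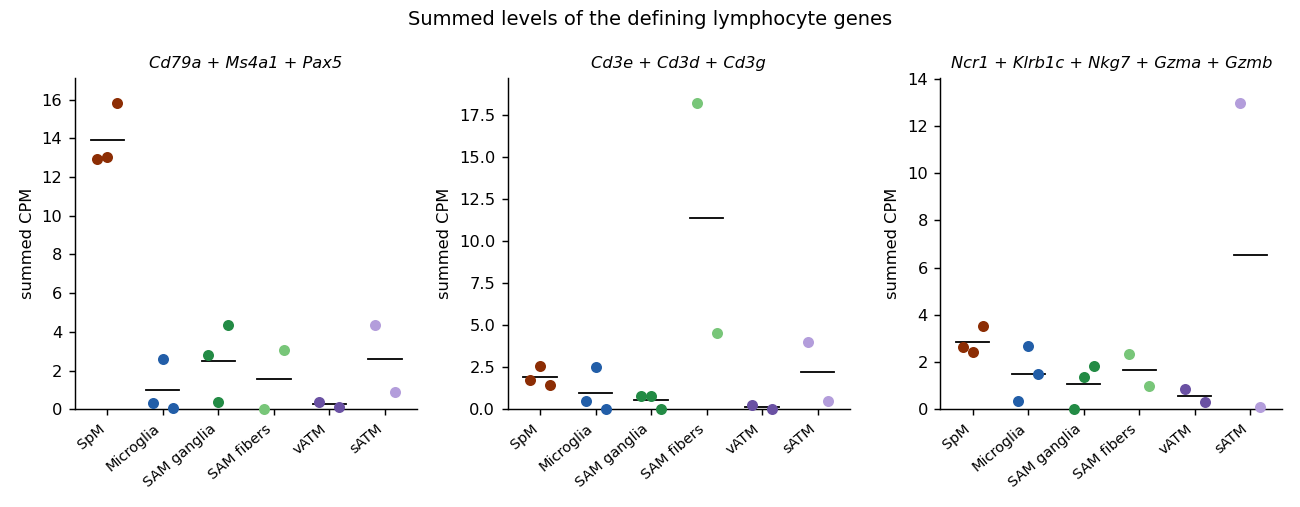
Summed CPM of Cd79a, Ms4a1 and Pax5 (left), of the CD3 chains (middle) and of 5 cytotoxic genes (right) in each library (points), with the group mean as a line. The B cell sum is 12.9 to 15.8 CPM in SpM and at most 4.34 CPM elsewhere, the CD3 sum is highest in SAM fibers 1 at 18.2 CPM, and the cytotoxic sum in sATM 1 at 13.0 CPM.

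Of the dendritic genes, Batf3 rose in fat and Clec9a in spleen. Batf3, a transcription factor needed for cross-presenting dendritic cells, had 147 and 149 CPM in vATM, 53.2 and 151 CPM in sATM, 31.6, 40.3 and 58.6 CPM in SpM, 16.4, 26.7 and 23.9 CPM in Microglia, 25.9, 36.6 and 46.4 CPM in SAM ganglia, and 45.3 and 40.4 CPM in SAM fibers. Of the fat libraries sATM 1 alone overlapped with the rest, and only with SpM 3. The gene rose in fat (1.81 ± 0.25, adjusted p = 0.000115), and in Microglia it fell by 1.51 ± 0.33 (adjusted p = 0.00361).

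Clec9a, a receptor for dead cells on cross-presenting dendritic cells, had 31.2, 21.7 and 29.6 CPM in SpM, 0.906, 0 and 0 CPM in Microglia, 2.88, 0.823 and 4.70 CPM in SAM ganglia, 0 and 2.82 CPM in SAM fibers, 2.45 and 0.230 CPM in vATM, and 0 in both sATM libraries. SpM lay above all others, and the gene rose there (adjusted p = 0.000100), at 23.5 times the mean of the other group means. Its fitted log2 fold change of 5.71 ± 0.79 depends on the prior count, as sATM was at 0. Xcr1, the chemokine receptor of the same dendritic cells, was at 0.443, 0.674 and 0.382 RPKM in SpM, where Clec9a had 11.03, 8.04 and 10.6 RPKM. Xcr1 was highest in Microglia 2 at 6.41 CPM and was called in no comparison.

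Flt3, the growth factor receptor of dendritic cells and their precursors, had 1.14, 1.35 and 0.334 CPM in SpM, 0.237, 0.795 and 0.440 CPM in Microglia, 7.11, 3.08 and 3.82 CPM in SAM ganglia, 0 and 4.10 CPM in SAM fibers, 1.36 and 1.77 CPM in vATM, and 10.7 and 1.28 CPM in sATM. Bst2 had 2.40, 1.95 and 5.05 CPM in SpM, 3.02, 1.96 and 3.78 CPM in Microglia, 5.43, 12.1 and 14.7 CPM in SAM ganglia, 5.14 and 4.74 CPM in SAM fibers, 2.76 and 4.52 CPM in vATM, and 0 and 4.16 CPM in sATM. By CPM the SAM ganglia libraries lay above all others for Bst2, with a fitted difference of 1.72 ± 0.63 that did not pass the test (adjusted p = 0.200). By RPKM SAM ganglia 1 (6.02) lay below SpM 3 (7.33), SAM fibers 2 (6.93) and Microglia 3 (6.04). Zbtb46, a transcription factor of conventional dendritic cells, reached 7.50 CPM in SAM ganglia 1, and neither it nor Flt3 was called in any comparison.

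**Figure D4:**
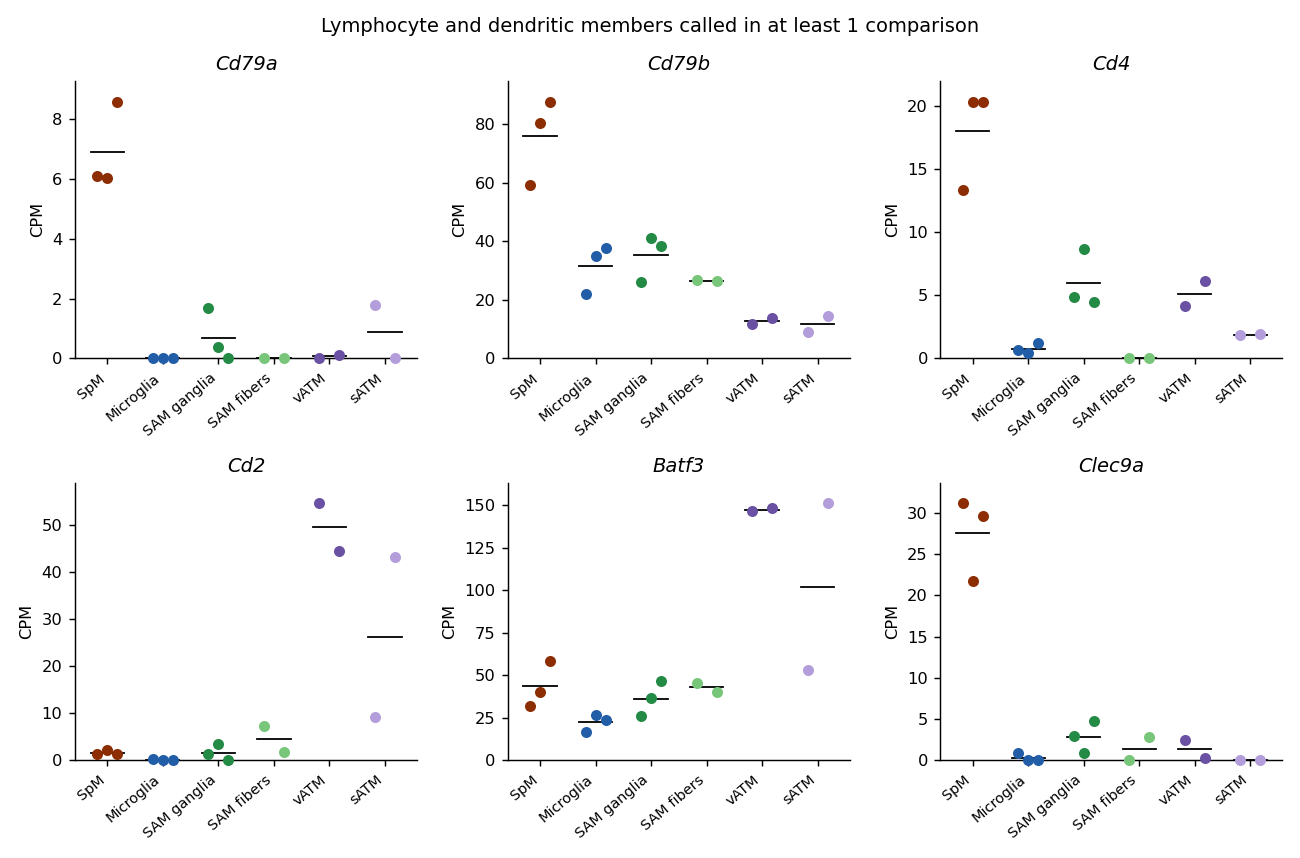
CPM of 6 lymphocyte and dendritic genes in each library (points), with the group mean as a line and each vertical axis starting at 0. SpM libraries are above all others for Cd79a, Cd79b, Cd4 and Clec9a, and the 4 fat libraries for Cd2, at 9.29 to 54.7 CPM.

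Each comparison set a group against the mean of the others on the log scale with groups weighted equally, or against sATM, in a fit over all 15 libraries. The comparisons share libraries and are not independent. Calls required adjusted p values under 0.05 and a fitted change of 1 or more log2 units, up or down. In SpM 5 of 23 loci were called higher (Hbb-bt, Cd79a, Cd79b, Cd4 and Clec9a) against 6.72% of all 15289 genes tested, and 0 lower against 5.72%. The median log2 fold change of the 23 loci was 1.53, beside -0.03 for all genes. Leaving out the SAM fibers libraries gave 9 loci called higher, the further ones being Alas2, Hbb-bs, Lck and Ms4a1. In Microglia 0 were called higher against 7.26% and 5 lower (Hba-a1, Hbb-bs, Hbb-bt, Batf3 and Cd2) against 6.48%, with a median of -1.42 beside 0.29. In edgeR at an unadjusted p below 0.05, 0 loci were lower in SpM and 0 higher in Microglia, and DESeq2 also called 0 of each.

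In SAM ganglia 4 of 23 loci were called higher (Hba-a1, Hbb-bs, Hbb-bt and Cd4) against 2.85% of all genes, and 0 lower against 0.242%, with a median of 0.58 beside 0.12. In edgeR 1 locus (Batf3) was lower at an unadjusted p below 0.05, and DESeq2 called 0 lower. The arithmetic mean over SAM ganglia was 283 CPM for Hbb-bs, and the other group means averaged 311 CPM. The Hbb-bs call thus rests on the log scale, where the SAM fibers weigh less. Its log2 fold change of 1.35 ± 0.34 (adjusted p = 0.0396) lost the call on leaving out any of 7 single libraries (adjusted p up to 0.248). Hba-a1 lost it without SAM ganglia 1 or 3 (adjusted p up to 0.0637). Without the SAM fibers libraries the 3 globin loci were called higher in SAM ganglia, at log2 fold changes of 2.21 to 2.58.

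In fat 2 of 23 loci were called higher (Batf3 and Cd2) against 5.66% of all genes, and 4 lower (Hba-a1, Hbb-bs, Hbb-bt and Cd79b) against 2.90%, with a median of -1.07 beside -0.06. In SAM fibers against sATM 3 were called higher (the globins) against 1.85%, and 1 lower (Cd4) against 2.99%, with a median of 0.91 beside 0.00. Those 3 were not called without sATM 2 (0 loci), at an adjusted p of 0.0570 for Hba-a1 and 0.0523 for Hbb-bs. In vATM against sATM 0 loci were called in either direction, against 0.0196% of all genes each way. There edgeR had 1 locus higher and 4 lower at an unadjusted p below 0.05, and DESeq2 called 2 lower, Hba-a1 and Hbb-bs. The vATM libraries were below both sATM libraries for all 3 globin loci, by 2.79 ± 0.63 for Hba-a1 (adjusted p = 0.167). The median over the 23 loci was -2.14, beside 0.04. Over the 6 comparisons 24 calls were made, and 18 of them were not made on the raw gene-body counts before DNA removal. That setting also called far fewer of all genes, for example 10 lower in fat against 443 on corrected counts, 153 lower in Microglia against 990, and 0 against 283 higher in SAM fibers against sATM. On raw counts the Hbb-bs log2 fold change was 0.68 in SAM fibers against sATM (adjusted p = 0.735) and -1.45 in fat (adjusted p = 0.504). The 6 that held in every alternative tried were Hbb-bt, Clec9a, Cd79a and Cd79b in SpM and Batf3 and Cd2 in fat.

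**Figure D5:**
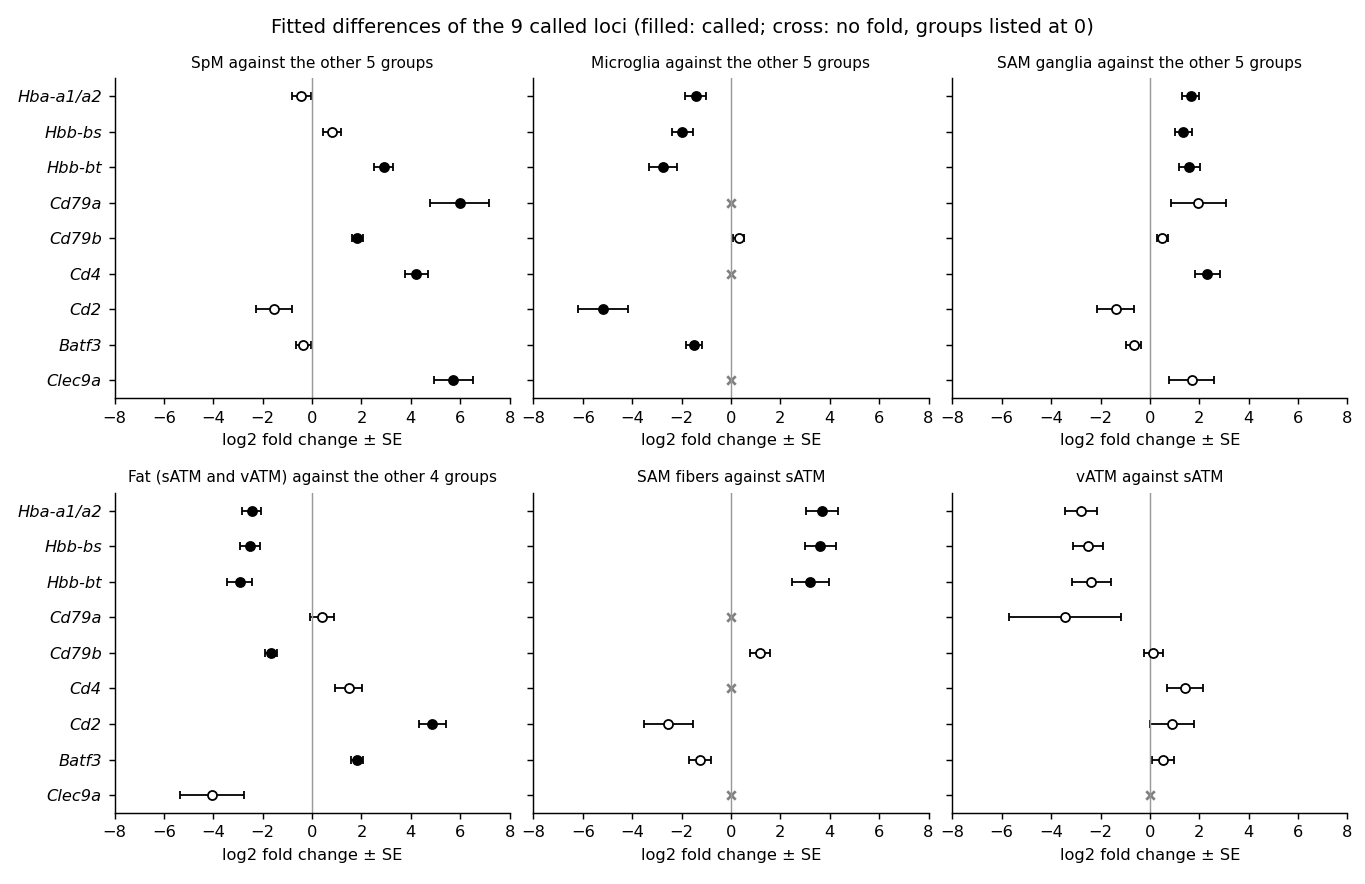
Fitted log2 fold changes ± SE of the 9 loci called in at least 1 comparison, in each of the 6 comparisons, with called values filled. Crosses stand where groups listed at 0 leave no usable fold, and globin loci lie right of 0 in SAM fibers against sATM (3.21 to 3.68) and left of 0 in fat (-2.93 to -2.45).

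Further lists of textbook genes for the same cells, assembled with results of these data known, were counted in the same fits. Of 12 tested B and plasma cell genes, 6 rose and 1 fell in SpM, where 6.72% of all genes were called higher and 5.72% lower. Bank1, a B cell scaffold protein, averaged 180.3 ± 53.1 CPM in SpM, against 15.5 to 38.995 CPM as means of the other groups, and Jchain, which joins secreted antibodies, spanned 5.57 to 47.1 CPM in SpM against 0 to 2.87 CPM elsewhere. Cd37, a tetraspanin of B cells, fell in SpM to 6.62 ± 0.785 CPM and rose in Microglia at 106 ± 30.4 CPM (SD, n = 3 each). Cd22, a lectin of B cells, was also called higher in Microglia, at 8.28 ± 1.98 CPM, although SpM had 15.5 ± 1.98 CPM and SAM ganglia 9.61 ± 1.15 CPM, while the fat and SAM fibers means were 0.0916 to 4.06 CPM. In fat Cd22 and Jchain were called lower (2.90% of all genes), Jchain being listed at 0 in all 4 libraries. Jchain was also low in Microglia and the SAM groups, with means of 0.095 to 1.43 CPM. Of 10 tested T cell genes, 1 rose and 1 fell in SpM, shares near those of all genes. Icos, a T cell costimulator, averaged 25.96 ± 0.939 CPM in SpM, and Il7r, the interleukin-7 receptor, 1.02 ± 0.241 CPM. Il7r was the 1 T cell gene called higher in Microglia (7.26% of all genes), at 30.9 ± 7.67 CPM. In SAM ganglia edgeR called 0 genes of either list (2 B and 1 T cell genes at an unadjusted p below 0.05), and DESeq2 called 1 B cell gene higher. In SAM fibers against sATM edgeR again called 0 (3 B and 1 T cell genes unadjusted), as did DESeq2.

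Of 8 tested natural killer and innate lymphoid genes, Klrk1, an activating receptor, rose in SpM (14.5 ± 2.27 CPM) and in fat (5.02 to 8.06 CPM). In Microglia Klrk1 and the chemokine Ccl5 were called lower, at 0 to 0.102 and 0.259 to 1.40 CPM. Il1rl1, the interleukin-33 receptor, rose in fat (14.3 to 45.1 CPM) and fell in SpM (0 to 0.861 CPM). Of 12 tested dendritic genes, 5 rose and 2 fell in fat (5.66% and 2.90% of all genes), led by the lectins Clec10a (56.8 to 151 CPM) and Cd209a (41.1 to 95.4 CPM) and the lysosomal enzyme Naaa. Cd209a was at 72.4 to 123 CPM in SAM ganglia. In SpM 2 rose and 5 fell (6.72% and 5.72% of all genes), with Clec10a at 0 to 0.334 CPM and Cd209a at 0.808 to 1.082 CPM. In Microglia 2 rose and 5 fell (7.26% and 6.48% of all genes). Siglech, a lectin of plasmacytoid dendritic cells and also of microglia, spanned 854 to 1409 CPM there against 1.33 to 317 CPM in the other groups. In SAM ganglia 2 rose (2.85% of all genes), Siglech and Cd209a. Siglech averaged 231 CPM there, and the other group means averaged 245 CPM, so its call rests on the log scale. In SAM fibers against sATM Siglech rose and Naaa fell (1.85% and 2.99% of all genes). Of the natural killer list edgeR and DESeq2 called 0 in SAM ganglia and 0 in SAM fibers against sATM, with 2 and 1 at an unadjusted p below 0.05. Of the T cell list edgeR called 0 in fat, with 3 unadjusted, and DESeq2 called 1 lower.

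Of 20 listed further erythroid genes, 8 were tested. In SpM Epor, the erythropoietin receptor, rose to 51.5 ± 10.7 CPM, and Car2, a carbonic anhydrase, to 10.96 ± 3.27 CPM. In that comparison 6.72% of all genes were called higher. In Microglia Ermap, a red cell membrane protein, was called higher and Epor lower (7.26% and 6.48% of all genes). In SAM ganglia and in SAM fibers against sATM, where globins rose, edgeR called 0 of the 8, with 1 and 2 at an unadjusted p below 0.05, and DESeq2 called 1 and 2 higher. In vATM against sATM edgeR called 0 genes of these 5 lists, with 2 B cell, 2 T cell, 0 natural killer, 1 dendritic and 2 erythroid genes at an unadjusted p below 0.05, and DESeq2 called 1 B cell gene lower and 1 dendritic gene higher.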

How the data were processed

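Low-input RNA-seq of total RNA from 15 sorted macrophage libraries in 6 groups was used as deposited, in 3 tables. The submitters' processing notes name STAR, HOMER and the mm10 build, without roles. Versions, the strand setting and the way the authors removed contaminating DNA are not stated in the sources used. The deposited tables held raw gene-body counts, estimated counts after the authors removed the DNA contribution (called corrected counts), and RPKM of the corrected reads, which scales for length and depth. Corrected totals were 2.546 to 12.52 M per library, and a floor of 3 counts was 0.249 to 0.895 CPM.

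Groups came from the labels. Corrected counts were rounded for edgeR (version 4.0.16, R version 4.3.3). Its filterByExpr, at a count minimum of 10, retained 15289 of 24084 genes, which were scaled by TMM, fitted with 1 mean per group over 15 libraries, tested by quasi-likelihood F-tests and adjusted by Benjamini-Hochberg over all genes tested. The common biological coefficient of variation was 0.68. The standard error was the size of the log2 fold change over the square root of F. Calls required adjusted p values under 0.05 and a fitted change of 1 or more log2 units. CPM values used the TMM totals. The scripts were tested on simulated counts with known changes.

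Every member was to be given, and of the further lists (9 in all) at most 3 called genes per list and comparison, by smallest adjusted p, with a group mean of at least 5 CPM. Members and lists were chosen with earlier results of these data known. Alternatives were RLE size factors, totals without Rn45s, Lars2 and Mir6236, no filter, DESeq2 1.42.0, raw counts, limma 3.58.1 on log2(RPKM + 0.1) and log2(RPKM + 1), a replicate block, and each library left out. Leaving out both SAM fibers libraries was added after seeing the data. Sequences are from RefSeq (GRCm38.p6), and promoters matched 24 of 31 members. Python 3.11.15 with pandas 2.3.3, scipy 1.17.1 and matplotlib 3.10.9 was used for summaries.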

Additional observations from a re-analysis of the deposited data

How the results depend on the processing

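The number of loci called moved by over 1.5 times in these cases. Loci called higher in SpM numbered 9 without the SAM fibers group, against 5. Loci called lower in Microglia numbered 0 on raw gene-body counts, against 5 (all genes: 153 of 21705, against 990 of 15289). Loci called higher in SAM ganglia numbered 2 with RLE size factors, 0 on raw counts, 1 with limma on log2(RPKM + 0.1), 1 with limma on log2(RPKM + 1) and 1 to 4 with single libraries left out, against 4 (all genes: 423, 36, 157 and 218 in the first 4 settings, against 436). Loci called lower in fat numbered 7 with DESeq2 and 0 on raw counts, against 4 (all genes: 929 and 10, against 443). In SAM fibers against sATM, loci called higher numbered 7 with DESeq2, 0 on raw counts, 5 with limma on log2(RPKM + 1) and 0 to 3 with single libraries left out, against 3 (all genes: 982, 0 and 815 in the first 3 settings, against 283). Loci called lower there numbered 2 without the filter, 0 on raw counts, 0 with limma at either pseudocount and 0 to 1 with single libraries left out, against 1. The only reversal was Cd4 there, at 0.30 on raw counts, which called 0 of 21705 genes in that comparison. In vATM against sATM, loci called lower numbered 2 without the filter, 2 with DESeq2, 2 with the replicate block and 0 to 2 with single libraries left out (2 without SAM fibers 1 or sATM 2), against 0 (all genes: 67, 80 and 10 in the first 3 settings, against 3). With RLE size factors the median log2 fold change of all genes in SAM fibers against sATM was 0.28, against 0.00 with TMM, and the split over all genes was 374 higher and 281 lower, against 283 and 457. The replicate block lost 0 of the 24 calls; same-numbered libraries correlated at -0.381 to 0.639 in their deviations from group means, over 0.1 in 16 of 33 pairs, so numbers were not taken to pair libraries. Depth limits the genes under the floor of 3 counts, and SAM fibers, vATM and sATM rest on 2 libraries each. The causes of these changes were not tested.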

Other observations

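Platelet and granulocyte genes outside the listed members also differed between sorts. Of 6 tested platelet genes, Clec1b, a lectin of platelets and also of some macrophages, rose in SpM to 55.4 ± 11.9 CPM (SD, n = 3), against group means of 0 to 1.29 CPM elsewhere, while Gp1bb, a platelet adhesion receptor chain, was called lower in SpM at 0 to 0.166 CPM. Gp9, its partner chain, rose in Microglia to 33.25 ± 12.002 CPM, against group means of 0.311 to 1.09 CPM elsewhere. Clec1b was called lower in fat (0 to 0.0807 CPM), with means of 0.134 to 1.29 CPM in Microglia and the SAM groups. It was called higher in SAM fibers (1.22 and 1.35 CPM) than in sATM, which was listed at 0. The floor of 3 counts was 0.895 CPM in SAM fibers 1 and 0.624 CPM in SAM fibers 2. Of 9 tested granulocyte genes, Ccr3, the eotaxin receptor of eosinophils, rose in SpM to 802 ± 134 CPM, against 0 to 7.46 CPM in libraries of the other groups. Siglecf, a lectin of eosinophils, was not called in SpM (1.24 to 3.16 CPM) and rose in Microglia to 21.4 ± 5.99 CPM. S100a9, a calcium-binding protein of neutrophils, was higher in SAM fibers (54.2 and 67.8 CPM) than in sATM (2.18 and 4.32 CPM, adjusted p = 0.0480, edgeR). In fat Ccr3, S100a9 and Ngp were called lower. Ccr3 averaged 0.179 CPM in vATM and 4.09 CPM in sATM, against 1.69 to 4.52 CPM as means of Microglia and the SAM groups. Of 3 tested mast cell genes edgeR called 0 in all 6 comparisons, with 1 at an unadjusted p below 0.05 in SAM fibers against sATM, where DESeq2 called 1 higher. Of 10 macrophage genes, 3 rose and 1 fell in SpM (6.72% and 5.72% of all genes), 6 rose and 1 fell in Microglia (7.26% and 6.48%), 1 rose in SAM ganglia (2.85%), and 1 rose and 5 fell in fat (5.66% and 2.90%). In SAM fibers against sATM, Cd14, a co-receptor for bacterial lipopolysaccharide, rose and Itgam, the integrin CD11b, fell (1.85% and 2.99%). In vATM against sATM edgeR called 0 of the 10, with 2 at an unadjusted p below 0.05, and DESeq2 called 0.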
